A study of Mus musculus with 8 samples.

Results

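The genes described here are the mitotic cyclins, their kinase Cdk1, the Cdc25 phosphatases and the 2 activators of the anaphase-promoting complex (APC/C). They were taken by name from the non-normalized expression table, as the rows CCNA2, CCNB1, CCNB2, CCNF, CDC2A (an older name of Cdk1), CDC20, CDC25A, CDC25B, CDC25C and FZR1. They are called by their current mouse symbols from here on. All 10 were found among the 18138 gene names of the table. RNA came from sorted OT-1 cells, T cells of mice with a transgenic receptor specific for SIINFEKL (OVA 257-264), a fragment of ovalbumin. In the first group (cB) the T cells had been stimulated by CD40-activated B cells, and in the second (DC) by dendritic cells, with 4 arrays each. Both kinds of stimulator had been cultured, matured with LPS and loaded with the peptide, both cocultures lasted 24 h at a ratio of 5 to 1, and in both groups the cells sorted carried CD8 and CD69, an early sign of activation. There was no unstimulated group, and the labels give neither the age of the mice nor whether arrays came from separate cultures, so the spread between arrays may be technical. The question was whether the kind of stimulating cell alters expression in the T cells.

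Cdk1 is the kinase that drives cells into mitosis. It is active only when bound to a cyclin, of the A type before mitosis and of the B type at its onset, and only after Cdc25 phosphatases have removed inhibitory phosphates from it. The APC/C is a ubiquitin ligase that ends mitosis by marking cyclins and securin for destruction. Cdc20 directs it in metaphase, and Fzr1 (Cdh1) directs it from late mitosis through G1, which keeps mitotic cyclins low in cells that are not dividing. Resting CD8+ T cells are quiescent and enter the cell cycle after antigen stimulation.

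Mean signal per array was 602 to 824 on the cB arrays and 622 to 757 on the DC arrays, in units of bead intensity. The estimated level of a probe with no target (the mean of the negative controls) was 148 to 167 intensity units over the 8 arrays. The lowest signal that counted as detected, here called the detection signal, was 173 to 195. The CD8 beta chain gene Cd8b1 was bright in both groups (median 11665 in cB and 10415 in DC), while Cd8a was undetected on all 8 arrays, and Cd69 itself was lower in cB (-2.15 ± 0.13 on the log2 scale, SE). The array of cB replicate 4 stood apart from the others on the second principal component. Of 7167 genes that were detected on at least 4 arrays and tested with limma, 2134 (29.8%) were called higher in cB and 2263 (31.6%) higher in DC, at a Benjamini-Hochberg adjusted p below 0.05 over all genes tested.

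Of the 10 genes, 6 were tested. Ccnb1, Cdc20, Cdc25a, Cdc25b and Ccnf were higher in cB, Fzr1 did not pass the threshold, and none was higher in DC. The direction for Ccnb1, Ccnf and Cdc25b was partly set by the detection filter, which they passed through the cB arrays, so the count is read as a description. Cdc20, Cdc25a and Fzr1 were detected on all 8 arrays. The cB arrays lay above every DC array for the 5 called genes, a pattern that 27.7% of all genes tested shared. In these bulk samples, fewer cells that express a gene and less RNA per cell cannot be told apart.

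**Figure D1:**
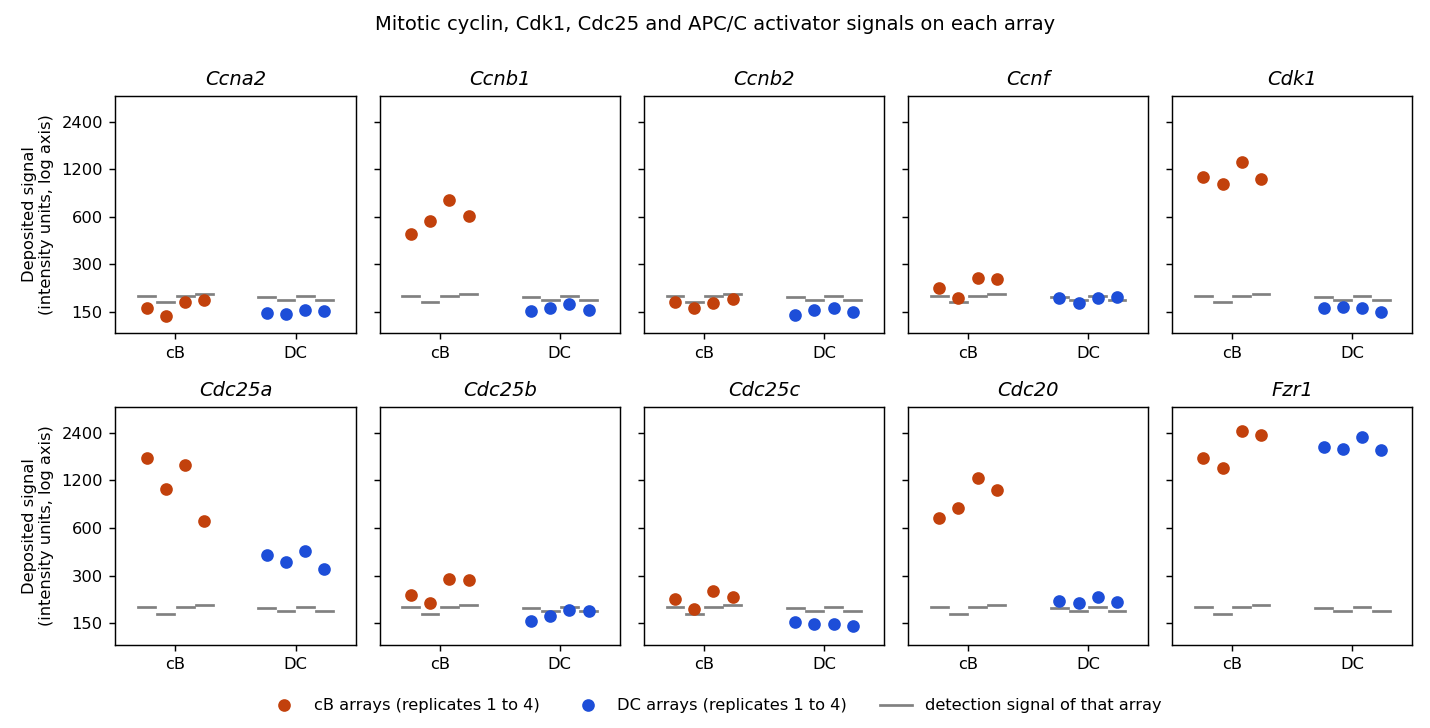
Deposited signal (intensity units, log axis) of each of the 10 genes on the 4 cB and 4 DC arrays, each point being an array and the grey bars its detection signal. Cdk1, Ccnb1 and Cdc20 lie well above the detection signal on the cB arrays, Fzr1 is bright and overlaps between the groups, and Ccna2 and Ccnb2 stay below the detection signal on all 8 arrays.

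Cdk1, the mitotic kinase itself, had deposited signals of 1068, 963, 1331 and 1038 on the cB arrays, against 158, 162, 159.6 and 149.6 on the DC arrays. Every cB array was far above the detection signal and every DC array below it. The deposited detection p-values of this row were nevertheless 0.0561, 0.282, 0.157 and 0.224 on the cB arrays, so it did not enter the test. On 13929 rows of the table the detection p-value was a whole multiple of a common step and followed the signal. On the other 4209 it was not on that step on every array. Cdk1, Ccnb1, Cdc20 and Cdc25c are among these rows, and on the Cdk1 row the p-value did not follow the signal. The sources used here do not give how the p-values of these rows were formed. Such p-values admitted Ccnb1 and Cdc20 to the test and kept out Cdk1 and Cdc25c. When detection was judged by the signal alone, an alternative chosen after the data had been seen, 7478 genes were tested, 30.2% of them were called higher in cB, and Cdk1 was among these, with a log2 difference of 4.91 ± 0.11 (SE, n = 4 per group) and a limma adjusted p of 1.74e-09. Since no DC array reached the detection signal, the difference is stated as at least 19.7-fold, under the background fit used here. Cdk1 passed the signal filter through the cB arrays alone.

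**Figure D2:**
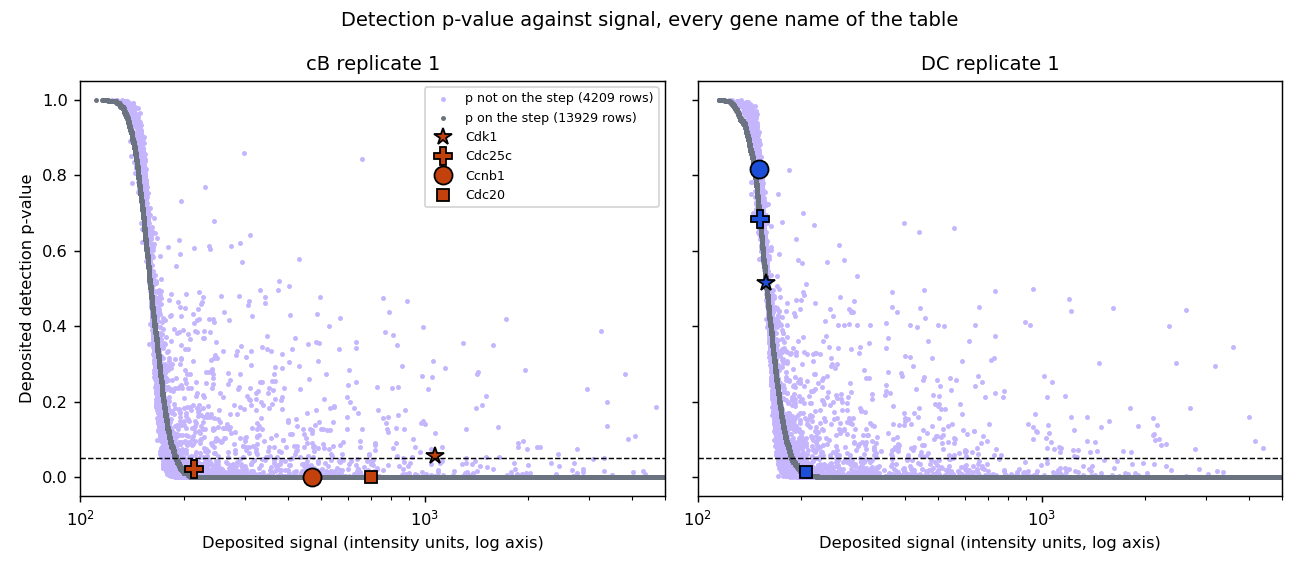
Deposited detection p-value against deposited signal (log axis) for every gene name, on cB replicate 1 at the left and DC replicate 1 at the right, with 4 rows marked and a dashed line at a p of 0.05. On cB replicate 1 the Cdk1 row has a signal of 1068 and a detection p of 0.0561, away from the curve that the rows on the step follow.

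Ccnb1 encodes cyclin B1, the main partner of Cdk1 at the entry into mitosis. Its signals were 469, 567, 768 and 608 on the cB arrays, against 151, 158, 168 and 154 on the DC arrays. The cB arrays were all detected and the DC arrays were all at the level of the negative controls. The fitted log2 difference was 3.82 ± 0.18 (SE, n = 4 per group; limma adjusted p = 8.96e-08). With the DC level taken as the limit of detection it was at least 9.27-fold, under the background fit used here.

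The other cyclins of this group gave little signal. Ccna2, the cyclin A2 gene, read 158, 142, 174 and 178 on the cB arrays, against 147, 145, 155 and 151 on the DC arrays. Ccnb2, the cyclin B2 gene, read 173, 159.7, 170.5 and 180.3 on the cB arrays, against 143, 155, 159.8 and 149.5 on the DC arrays. Both rows were undetected on all 8 arrays, by p-value and by signal, and were not tested. The values limit only what these rows could measure, since each stands for an unstated number of probes. Ccnf, which encodes cyclin F, the substrate receptor of an SCF ubiquitin ligase and no partner of Cdk1, read 212, 185, 246 and 244 on the cB arrays, against 184, 171, 184 and 186 on the DC arrays. Its cB signals were just above the detection signal, and 1 of the 4 DC arrays was detected. The log2 difference was 0.69 ± 0.14 (limma adjusted p = 0.00204). It was 0.22 in the authors' gene-level values (adjusted p = 0.0207) and 0.062, past no threshold (adjusted p = 0.0555), with the background estimated from all rows.

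Each of the 3 Cdc25 phosphatases was higher on every cB array than on any DC array. Cdc25a, which acts at the entry into S phase as well as into mitosis, was the brightest of the 3. It had signals of 1652, 1059, 1497 and 660.0 on the cB arrays, against 406, 367, 427 and 331 on the DC arrays. The log2 difference was 1.92 ± 0.32 (limma adjusted p = 4.79e-04). Replicate 4 was the lowest of its group in both cB and DC, and the cB arrays spread widely. The cB standard deviation was 0.74 on the log2 scale, rank 81 from the top among the 7167 genes, and 0.23 without cB replicate 4, when the difference became 2.28.

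Cdc25b, which starts the activation of Cdk1 before mitosis, read 226, 202, 286 and 280.0 on the cB arrays, against 155, 166, 180.5 and 179.9 on the DC arrays. Its log2 difference was 1.35 ± 0.19 (limma adjusted p = 1.68e-04), with 1 of the 4 DC arrays detected. Cdc25c, which amplifies that activation in mitosis, read 214, 184, 241 and 219 on the cB arrays, against 152, 148, 149 and 144 on the DC arrays. By p-value only 2 cB arrays were detected, so Cdc25c was not tested. By signal all 4 cB arrays were detected and no DC array was, and the log2 difference of 1.26 ± 0.10 was called (limma adjusted p = 3.76e-06). This amounts to at least 1.41-fold, under the background fit used here. Cdc25c passed the signal filter, chosen after the data had been seen, through the cB arrays alone.

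Of the 2 activators of the APC/C, Cdc20 was higher in cB and Fzr1 did not pass the threshold. Cdc20 had signals of 697, 804, 1239.7 and 1040.4 on the cB arrays, against 206, 200.3, 221 and 203 on the DC arrays. It was detected on all 8 arrays, although the DC signals were close to the limit. The log2 difference was 3.41 ± 0.15 (SE, n = 4 per group; limma adjusted p = 7.61e-08). Fzr1 had signals of 1653, 1443, 2476 and 2310.5 on the cB arrays, against 1962, 1894, 2260.4 and 1873 on the DC arrays. The groups overlapped, and after normalization the log2 difference was -0.20 ± 0.11 (adjusted p = 0.15), with adjusted p between 0.0856 and 0.56 over 18 alternatives. Within arrays, Cdc20 minus Fzr1 was -1.17 ± 0.22 in cB and -4.79 ± 0.08 in DC on the log2 scale (SD, n = 4 each), a difference of 3.61 ± 0.12 (SE). No cB array overlapped a DC array in this measure, and the exact permutation p was 0.0286, two-sided, the smallest that 4 against 4 arrays allow.

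A second pair could be tested in the same way: Cdc25a and Cdc25b. Their differences were apart by 0.57 ± 0.57 (SE), with an exact permutation p of 0.371. Cdc25b was detected on only 1 of the 4 DC arrays, so this value rests in part on signals near background. Adjusted over both pairs, the p for Cdc20 and Fzr1 was 0.0571, and with 2 pairs neither could fall below the threshold unless both reached the smallest p. Other pairs held a gene that was undetected on all DC arrays or not tested. With detection by signal 5 pairs were tested and none passed the threshold after adjustment. The adjusted permutation p for Cdc20 and Fzr1 was then 0.0714. The added pairs held Cdk1 or Cdc25c, both undetected on all DC arrays, so their differences are not read here.

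**Figure D3:**
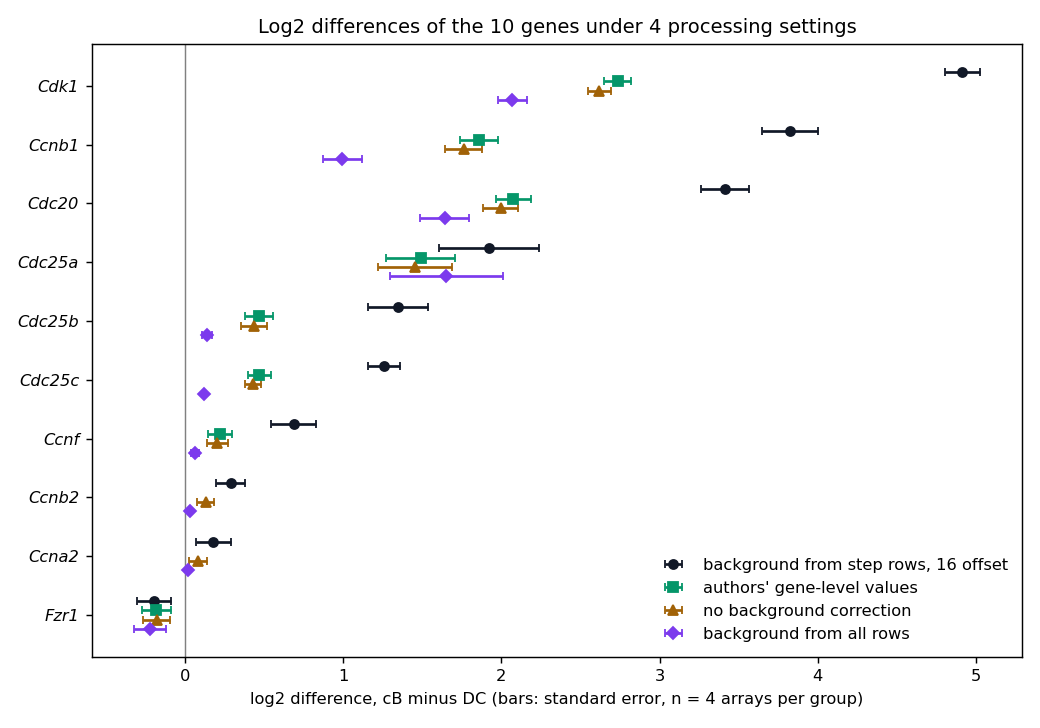
Log2 difference, cB minus DC, of the 10 genes with its standard error (n = 4 arrays per group) under 4 processing settings. All values for Cdk1, Ccnb1, Cdc20 and Cdc25a lie right of 0 and those of Fzr1 left of it, while the sizes for dim genes depend on the setting, as for Ccnb1 with 3.82, 1.86, 1.76 and 1.00.

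The sizes of these differences rested on how the background was treated, with most DC signals at or near it. In the authors' gene-level values, which hold 8 of the 10 genes, the log2 differences were 2.74 for Cdk1, 1.86 for Ccnb1 and 2.08 for Cdc20. They were 1.49 for Cdc25a, 0.47 for Cdc25b and 0.47 for Cdc25c. These 6 genes and Ccnf passed the threshold there, and Fzr1 (-0.18) did not. With the background estimated from all rows, which gave the smallest sizes for Cdk1, Ccnb1, Cdc20, Cdc25b and Cdc25c, the same 5 genes differed by 2.07, 1.00, 1.64, 0.14 and 0.12. Cdc25a, whose DC signals were well above background, kept between 1.45 and 2.28 under every alternative run. For Cdk1, Ccnb1 and Cdc25c the authors' differences lie below the bounds given above, so those bounds hold only for the main background fit.

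The start regions of these genes were read for the sequence elements known from genes that peak late in the cell cycle. The CHR element, searched here as TTTGAA or TTCGAA only, is bound by the MuvB complex and the CCAAT box (CCAAT) by NF-Y. RefSeq windows on GRCm38.p6, 250 bases before to 50 after the gene start, were at hand for 8 of the 10 genes, all but Ccna2 and Cdc25c. Both strands were searched, in the gene's own direction and its complement. The windows of 3 genes with large differences are shown with that of Fzr1, which did not pass the threshold. Capitals mark CHR and CCAAT matches on either strand, so that ATTGG is the CCAAT box on the other strand. The windows are chr10:69352863-69353162 for Cdk1, chr4:118437294-118437593 for Cdc20, chr13:100786437-100786736 for Ccnb1 and chr10:81378321-81378620 for Fzr1, all on the minus strand.
Cdk1: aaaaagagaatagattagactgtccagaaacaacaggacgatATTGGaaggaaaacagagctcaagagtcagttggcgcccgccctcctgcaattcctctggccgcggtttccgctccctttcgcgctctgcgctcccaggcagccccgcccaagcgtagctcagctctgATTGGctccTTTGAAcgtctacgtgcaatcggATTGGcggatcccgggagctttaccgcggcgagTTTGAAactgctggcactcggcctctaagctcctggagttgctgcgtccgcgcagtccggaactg
Cdc20: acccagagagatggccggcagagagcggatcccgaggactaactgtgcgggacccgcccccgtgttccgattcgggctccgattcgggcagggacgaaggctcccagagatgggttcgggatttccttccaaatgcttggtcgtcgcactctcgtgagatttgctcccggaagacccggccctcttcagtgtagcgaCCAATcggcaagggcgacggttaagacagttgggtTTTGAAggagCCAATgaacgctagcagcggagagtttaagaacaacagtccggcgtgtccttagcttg
Ccnb1: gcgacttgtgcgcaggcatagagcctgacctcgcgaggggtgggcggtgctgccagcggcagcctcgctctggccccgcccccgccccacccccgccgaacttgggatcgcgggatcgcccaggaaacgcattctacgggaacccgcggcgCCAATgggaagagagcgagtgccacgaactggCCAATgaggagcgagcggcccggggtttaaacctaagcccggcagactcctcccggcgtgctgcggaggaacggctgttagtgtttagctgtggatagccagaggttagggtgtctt
Fzr1: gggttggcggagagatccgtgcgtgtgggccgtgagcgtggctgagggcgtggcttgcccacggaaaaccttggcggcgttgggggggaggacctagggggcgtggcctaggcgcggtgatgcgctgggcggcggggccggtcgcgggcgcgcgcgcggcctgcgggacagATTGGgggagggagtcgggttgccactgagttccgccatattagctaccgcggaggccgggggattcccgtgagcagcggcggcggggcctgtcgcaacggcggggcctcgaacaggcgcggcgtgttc

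Cdk1 held 2 CHR and 3 CCAAT matches in its window, Cdc20 1 and 2, Ccnb1 0 and 2, and Fzr1 0 and 1. Counted from the first base of the gene as 0, the CHR nearest the start of Cdk1 ran from -15 to -10 and that of Cdc20 from -18 to -13, with CCAAT matches from -48 to -44 in Cdk1 and from -53 to -49 and from -8 to -4 in Cdc20. The CCAAT matches of Ccnb1 ran from -99 to -95 and from -67 to -63. Of the 8 genes, 5 held a CHR match (Cdk1, Cdc20, Ccnb2, Ccnf and Cdc25b) and all 8 a CCAAT match. Among 32851 RefSeq windows of the same length, chromosome 18 left out, 19.2% held a CHR match, 37.4% a CCAAT match and 7.52% both. A form of the E2F element (TTTCCCGC, TTTCGCGC, TTTGCCGC or TTTGGCGC) was in the windows of Cdk1 and Cdc25a and in 2.26% of all. A match is a string of letters and no measurement of binding. A count of 0 means only that the letters searched were absent, and other forms of an element were not sought.

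Genes around this group were counted in 9 lists, of which 109 genes were in the table and 71 were tested. Toward cB 37 passed the threshold and toward DC 14, where 29.8% of all genes tested passed toward cB and 31.6% toward DC. Of the 37, 13 were detected on at most 1 DC array and so passed the filter through the cB arrays. Within the lists, counts such as 3 of 9 or 3 of 8 toward cB are near the share of all genes. Over the 71 genes the median log2 difference was 0.38, against -0.03 over all genes tested. Values in parentheses are log2 differences, cB minus DC, with their SE (n = 4 per group), and a gene is called higher where its limma adjusted p was below 0.05. Subunits of the APC/C itself differed in both directions or not at all. Of its 14 core subunits 9 were tested, with a median of 0.042. Anapc5 (1.89 ± 0.10), a scaffold subunit, Anapc15 (1.52 ± 0.18), needed for release of the checkpoint complex, and Cdc16 (0.54 ± 0.16) were higher in cB, and Anapc16 (-2.04 ± 0.10) was higher in DC. The difference for Anapc15 was 0.81 in the authors' gene-level values and 0.42 with the background from all rows. The other 5, Anapc2, Anapc4, Anapc7, Anapc13 and Cdc27, did not pass and lay between -0.13 and 0.13.

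Among APC/C inhibitors and ubiquitin-conjugating enzymes, 5 of 11 in the table were tested, 4 higher in cB and 1 in DC. Mad2l1 (3.44 ± 0.14) and Bub1b, at least 8.86-fold higher, both part of the checkpoint complex that holds Cdc20, were higher in cB. So were Bub3 (0.79 ± 0.14) and Mad2l2 (0.61 ± 0.13), while Mad2l1bp (-0.45 ± 0.13), which encodes a protein that removes Mad2, was higher in DC. For Bub1b the authors' log2 difference was 1.81, which lies below its bound. The enzyme genes Ube2c and Ube2s and the inhibitor gene Fbxo5 were detected on at most 2 cB arrays and on no DC array, and were not tested. Of the substrates and their associated proteins, 11 of 19 in the table were tested, 10 were higher in cB and none in DC. The median was 4.66, or 4.07 with the 3 genes undetected in DC at their bound. In the authors' gene-level values it was 2.34, over a different set of 13 genes, which includes Anln, Cdc6 and Nusap1, not tested here, and lacks Pttg1. The chromosomal passenger gene Birc5 differed by 6.30 ± 0.16, Kif22, a mitotic kinesin gene, by 5.68 ± 0.19 (3.71 in the authors' gene-level values), and Espl1, which encodes separase, the protease that securin restrains, by at least 14.9-fold. For Tk1, the thymidine kinase gene, the bound was at least 18.3-fold. The authors' log2 differences were 2.48 for Espl1 and 2.64 for Tk1, which lie below these bounds. Pttg1, which encodes securin, did not pass (-0.23 ± 0.18), and its medians were 189 intensity units in cB and 189 in DC, near the detection signal. Of the 10 called substrate genes, 8 were detected on at most 1 DC array and passed the filter through the cB arrays, so their count and median are a description.

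**Figure D4:**
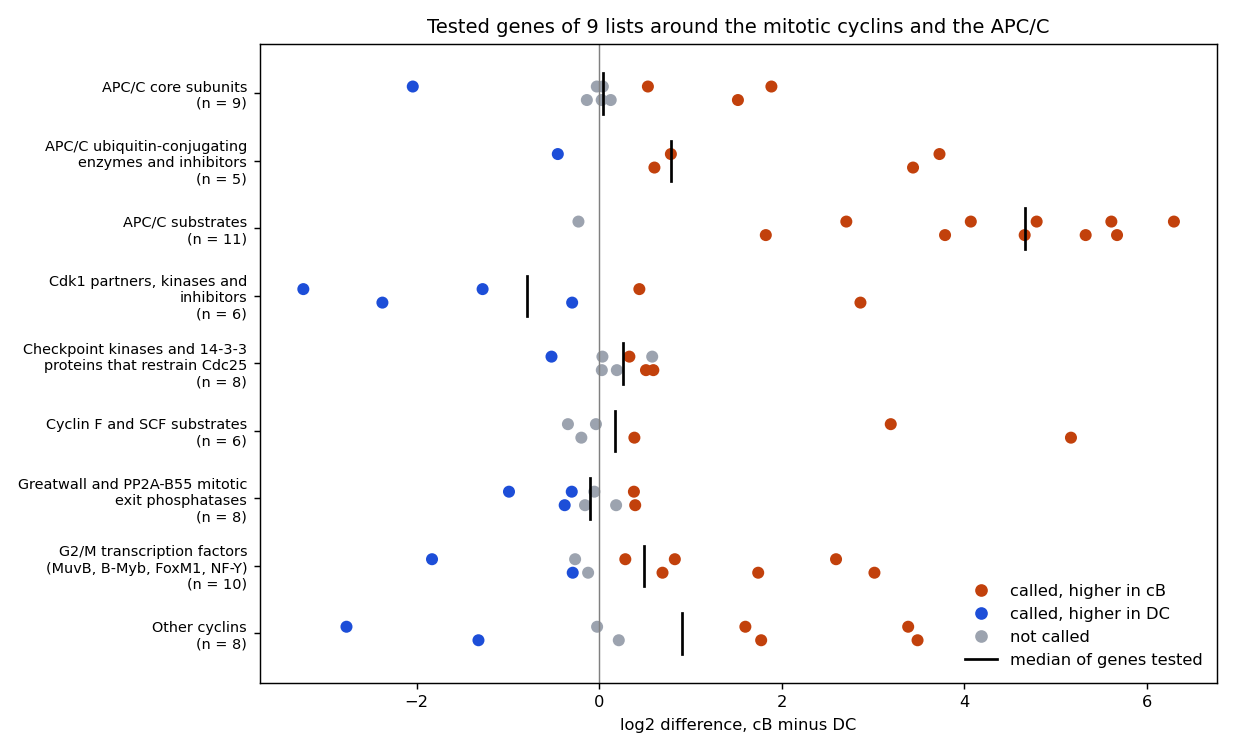
Log2 difference, cB minus DC, of the tested genes in 9 lists around the mitotic cyclins and the APC/C, each point a gene, with the median of each list as a black bar. Most points of the APC/C substrates lie well right of 0 (median 4.66, with most of their DC levels near background), the core subunits centre near 0 (median 0.042), and the list of Cdk1 partners, kinases and inhibitors holds genes far to either side.

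Regulators of Cdk1 went both ways. Of 6 tested partners, kinases and inhibitors, 2 were higher in cB and 4 in DC. Pkmyt1, which encodes a kinase that inhibits Cdk1 (2.86 ± 0.21), and Gadd45g (0.44 ± 0.11) were higher in cB. Higher in DC were Cdkn1a (-3.24 ± 0.15), which encodes the cyclin-dependent kinase inhibitor p21, Gadd45b (-2.37 ± 0.21), Gadd45a (-1.28 ± 0.19), whose product can inhibit Cdk1, and Mnat1 (-0.29 ± 0.11), a subunit gene of the Cdk-activating kinase. The difference for Pkmyt1 was 1.29 in the authors' gene-level values, and that for Gadd45a -0.57. The count higher in DC was 3 with the replicate block, under median scaling, and without cB replicate 1 or 2 or any 1 of the DC arrays. The count higher in cB was 3 without cB replicate 1 or any 1 of the DC arrays. Wee1, the other kinase gene that restrains Cdk1, and Cks1b were undetected on all 8 arrays. Among checkpoint kinases and proteins that restrain Cdc25, 8 of 12 were tested. The 14-3-3 genes Ywhab (0.51 ± 0.11), Ywhaq (0.59 ± 0.19) and Ywhag (0.33 ± 0.12) were higher in cB, Btrc (-0.52 ± 0.18), the gene of a ligase receptor for Cdc25a, was higher in DC, and 4 did not pass. Some of these calls rested on single arrays. The count higher in cB was 1 without cB replicate 1, 2 or 3 or DC replicate 1, and the count higher in DC was 0 without cB replicate 1 or 2 or DC replicate 1, 3 or 4, under median scaling and with the background from all rows. Chek1, whose product marks Cdc25a for destruction, was above the detection signal on 2 cB arrays and no DC array and was not tested.

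Of 8 genes listed as cyclin F substrates or parts of its ligase, 6 were tested, 3 were higher in cB and none in DC. E2f1 (5.17 ± 0.13) and Rrm2 (3.20 ± 0.18), a subunit gene of ribonucleotide reductase, were higher in cB, and Ccp110 (0.39 ± 0.13) by less. In the authors' gene-level values E2f1 differed by 3.40, Rrm2 by 2.15 and Ccp110 by 0.23. The count higher in cB was 2 under median scaling, with a detection p below 0.01, and without cB replicate 1, 3 or 4 or DC replicate 2 or 3. The ligase subunit genes Skp1 (-0.34 ± 0.24), Cul1 (-0.19 ± 0.18) and Rbx1 (-0.03 ± 0.08) did not pass. Of the genes listed for Greatwall and the phosphatases of mitotic exit, 8 were tested. Ensa (-0.99 ± 0.10), Ppp2cb (-0.38 ± 0.09) and Ppp2ca (-0.30 ± 0.08) were higher in DC and Ppp1ca (0.40 ± 0.09) and Cdc14b (0.38 ± 0.12) in cB. Under median scaling 1 was called higher in cB and 1 in DC, and the count higher in cB was 1 in every round that left out 1 array, those without cB replicate 4 and DC replicate 3 excepted. Mastl, which encodes Greatwall, was undetected on all 8 arrays.

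Of the factors that control late cell cycle genes 10 were tested, of which 6 passed toward cB and 2 toward DC. Mybl2, which encodes B-Myb, was undetected in DC and at least 5.27-fold higher in cB, Foxm1 differed by 2.60 ± 0.16 and Tfdp1, a partner of E2F factors, by 1.74 ± 0.09. In the authors' gene-level values the difference was 1.25 for Foxm1, and 1.29 for Mybl2, which lies below its bound. The NF-Y genes differed in direction: Nfyb (-1.83 ± 0.12) and Nfyc (-0.29 ± 0.10) were higher in DC and Nfya (0.29 ± 0.10) in cB. Under median scaling in place of quantile normalization, and in 5 of 8 rounds that left out 1 array, the count higher in DC was 1. It was 3 without cB replicate 1, without background correction, and with the background from all rows. In the authors' gene-level values it was also 3. The count higher in cB was 5 in several settings, among them median scaling and the background from all rows, where Nfya differed by 0.03. The MuvB genes Lin54 (-0.26 ± 0.11) and Lin37 (-0.12 ± 0.21) did not pass, and Lin9 and Lin52 were undetected on all 8 arrays.

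Among the other cyclins and their kinases, 8 were tested. The S phase cyclin genes Ccne1 (at least 8.61-fold) and Ccne2 (at least 6.54-fold) were higher in cB, Cdk2 differed by 1.78 ± 0.09 and Ccnd3 by 1.60 ± 0.11. The authors' log2 differences were 1.68 for Ccne1 and 1.55 for Ccne2, which lie below these bounds. Ccng1 (-2.77 ± 0.11) and Ccng2 (-1.32 ± 0.20), cyclin genes tied to growth arrest, were higher in DC. The difference of Ccng2 was -0.72 in the authors' gene-level values and -0.38 with the background from all rows. Ccnd1 (0.22 ± 0.13) and Ccnd2 (-0.02 ± 0.27) did not pass.

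The genes whose profile over the 8 arrays was most like that of Ccnb1 were sought among all 7167, by the root mean square of the log2 difference between profiles centred on their own means. They were Mnd1 (0.12), Incenp (0.19), Bub1b (0.23), Cenpp (0.24) and Mcm4 (0.25). For Cdc20 they were Cenpp (0.11), Dlgap5 (0.13), Nmral1 (0.19), Cenpm (0.19) and the histone gene H3c10 (0.20). Of these, Incenp and Cenpm were detected on all 4 DC arrays and the others on none, so the likeness rests largely on DC levels that were not above background. Ccnb1 itself was at background in DC.

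Markers of the stimulating cells were read on the same arrays. Of 15 B cell markers with a row, 8 were tested. Those that passed toward cB included Cd79b, by at least 3.62-fold, and Fcmr, by at least 4.73-fold, while Pou2af1 (-1.27 ± 0.16) and H2-Eb1 (-0.65 ± 0.18) passed toward DC. H2-Ab1, the brightest, did not pass (0.17 ± 0.17). Their summed signal was 4717 to 5758 in cB and 4813 to 5250.3 in DC, and Pax5, Cd22 and Blk were below the detection signal on all 8 arrays. Of 21 dendritic and myeloid marker rows 8 were tested, 1 higher in cB, Fscn1 (1.47 ± 0.21), and 7 in DC. Those 7 were Cd14 (at least 4.13-fold), Il1b (at least 3.40-fold), Zbtb46 (-2.18 ± 0.16), Fcer1g (-1.15 ± 0.23), Cd68 (-0.99 ± 0.17), Clec4n (-0.98 ± 0.24) and Cst3 (-0.26 ± 0.10), the brightest. Their summed signal was 5825 to 7412 in cB and 7635 to 8015 in DC, and Itgax was undetected on all 8 arrays. The authors' log2 differences were 0.97 for Cd79b, 1.08 for Fcmr, -0.97 for Cd14 and -0.92 for Il1b, smaller in size than the bounds given. The part of other cells in the differences of the mitotic genes was not tested.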

How the data were processed

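Per the labels, the 8 arrays are Illumina mouse-ref8-v2.0 beadchips with RNA of sorted OT-1 cells. The deposited non-normalized table gives the average bead signal, a linear intensity, and a detection p-value for 18138 gene names, per the file headers. Gene-level log2 values that the authors had normalized are deposited for 7266 genes, of which 7258 matched the table, and probe-level log2 values without gene names, which were not used. The sources used here do not give how these were normalized. Groups and replicate numbers were taken from the titles.

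Analysis used limma 3.58.1 (R 4.3.3). Background mean and SD came, per array, from signals and detection p-values of those 13929 rows whose p was a whole multiple of a common step (tolerance 0.001 of a step) on all arrays. Normexp correction with an offset of 16 and quantile normalization followed, and values were taken to log2. Genes that 4 or more of the 8 arrays detected (p below 0.05) were fitted with lmFit and eBayes, cB minus DC, with Benjamini-Hochberg adjustment over all genes tested. Detection by signal used, on each array, the lowest signal with a detection p below 0.05 among those 13929 rows. A gene undetected in a group was given a bound: the mean of the other group was set against a floor, for which each array gave its lowest detected level, or the gene's own level if that was higher. Such a bound holds only for the background fit used. Pairs of genes were compared by exact permutation of arrays (scipy 1.17.1). The fit was also run on simulated data whose detection p-values were all on the step, so that run does not cover the other rows. The number of arrays limits the precision.

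The members and lists were chosen with earlier results of these data known. All 10 members were named, with up to 4 genes of each list by lowest p, others where a count of 5 or fewer needed them, 5 genes most like Ccnb1 and Cdc20, and markers, of which not all are reported here. Some further list members that did not pass or were not detected were named after their values had been seen. Lists were matched through RefSeq symbols and synonyms of GRCm38.p6.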

Additional observations from a re-analysis of the deposited data

Results flagged for a closer look

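Cdk1 on DC replicate 2 lay apart from the other 3 DC arrays, with a gap of 0.942 of the range of the group on the log2 scale, which is past Dixon's critical value for a group of 4. Its log2 value there was 5.10, against 4.87, 4.86 and 4.87 on the other DC arrays. All 4 values are below the detection signal, so they have no order as levels. It was the only array set apart among the 20 sets of 4 arrays examined (10 genes in 2 groups), and chance alone gives about 1 in 20.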

How the results depend on the processing

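Over 17 or 18 alternatives each, no gene of the group reversed its direction past the threshold. The count higher in cB was 5, and 8 with no detection filter, when all 10 were tested, Cdk1, Cdc25c and Ccnb2 (adjusted p = 0.0471) being added. It was 7 with detection by signal, and 7 with that and without cB replicate 4. Ccnf was lost with a detection p below 0.01, when it was not tested, and with the background from all rows. In the lists the count higher in DC was 14, and 9 under median scaling. Over the rounds that left out 1 array, with a filter of 3 of 7 arrays, 5 genes were called in each, and the difference lay between 3.71 and 3.98 for Ccnb1, 3.34 and 3.58 for Cdc20, and 1.72 and 2.28 for Cdc25a. Equal replicate numbers were not said to share a culture. Deviations from group means correlated between same-numbered arrays at 0.113, 0.128, 0.175 and 0.0824, and each array correlated best with its own number, a hint from the data and not from the design. With the replicate block 2144 genes were called higher in cB and 2287 in DC, against 2134 and 2263 without it, and 5 genes of the group were called. Signal near background limits the sizes given for Ccnb1, Cdk1, Cdc20, Cdc25b, Cdc25c and Ccnf, and that for Cdc20 minus Fzr1. Ccna2 and Ccnb2 were not measurable here.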

Other observations

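Cdc25a was the gene of the group with the widest spread in cB, and replicate 4 was its lowest array in both groups. Its log2 values were 10.51, 10.18, 10.07 and 8.82 for cB replicates 1 to 4, and 8.19, 8.07, 7.94 and 7.69 for DC replicates 1 to 4. Cdk1 was also lowest in cB on replicate 4, at 9.62 against 9.82, 10.03 and 9.88 on the others. The value of cB replicate 4 was 9.63 for Cdc20 among cB values of 9.07 to 9.78 and 8.67 for Ccnb1 among 8.26 to 9.12.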
